A study of Bos taurus with 40 samples.

Results

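The liver of young Simmental cattle held 281 abundant genes listed for liver only, which here means for both livers and not for heifer muscle. They were selected on measured values: an Ensembl identifier had to be listed in all 10 bull liver and all 10 heifer liver files and in none of the 10 heifer muscle files, with a mean of at least 200 CPM (reads of a gene per 1000000 counted reads) over the bull livers. These 281 were among 2586 identifiers listed for liver only, 7045 listed for both liver sets and 8531 listed in any file of the series. Bull muscle was not part of the rule, and 103 of the 281 were listed for it as well. The rule also left out 4 identifiers and the heifer livers 2728, L58 and L16. The files give identifiers only, and no source used here pairs a member with a gene name, so the members are described by identifier and their roles are not stated.

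Purebred Simmental animals of either sex were compared between high and low residual feed intake (RFI), the difference between the feed an animal eats and the feed its weight and growth predict, so that a low value marks an efficient animal. The animals were bred from cows and sires at either extreme of RFI, were housed at approximately 15 months of age on a concentrate diet offered without limit with some grass silage, and gave liver and muscle biopsies when intake recording ended. RNA was sequenced from 40 samples, 5 of high and 5 of low RFI for each sex and tissue. After the 3 heifer livers were left out, the comparisons of liver held 5 high and 5 low RFI bulls and 4 high and 3 low RFI heifers. Tags naming the animals were either 4 digits or a short code, and what the 2 kinds of tag stand for is not given in the sources used here.

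As background, the bulk of the liver is made of hepatocytes, which secrete most of the proteins of blood plasma and carry the enzymes of bile acid, urea, glucose and drug metabolism. Many of their transcripts are very abundant and are made at low levels or not at all in skeletal muscle, a tissue of contractile fibres. A level measured in a whole biopsy mixes all its cell types, so that fewer cells of a type and less RNA per cell cannot be told apart.

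Depth, recovered from the smallest step between values, was 2368340 to 23288228 reads in bull liver and 8433913 to 35691049 reads in the 7 heifer livers. At the lowest member mean, the shallowest liver (bull 2713) held approximately 477 reads, so that counting error alone gave an SD of approximately 0.07 on the log2 scale there. One library stood apart. Of 56 identifiers that separated the other 9 bulls from the 7 heifers without overlap, the library labelled bull 68 (high RFI) lay nearer to the heifers for 42, which is 75%. The same count, made for each other bull in turn, was 0 to 10 of 20 to 27 identifiers (at most 37.5%). For each heifer it was 5 to 12 of 26 to 31 (at most 40%). Bull 68 was among the bulls in those counts, so identifiers for which it overlapped the heifers could not enter. The counts are therefore not on equal terms. Of 318 identifiers listed for bull but not for heifer liver, 3 were under 0.5 CPM in the library labelled bull 68 and at 10.4 to 23.6 CPM in every other bull. No other bull had such an identifier. Several results in which this library stood apart are therefore given with and without it.

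**Figure D1:**
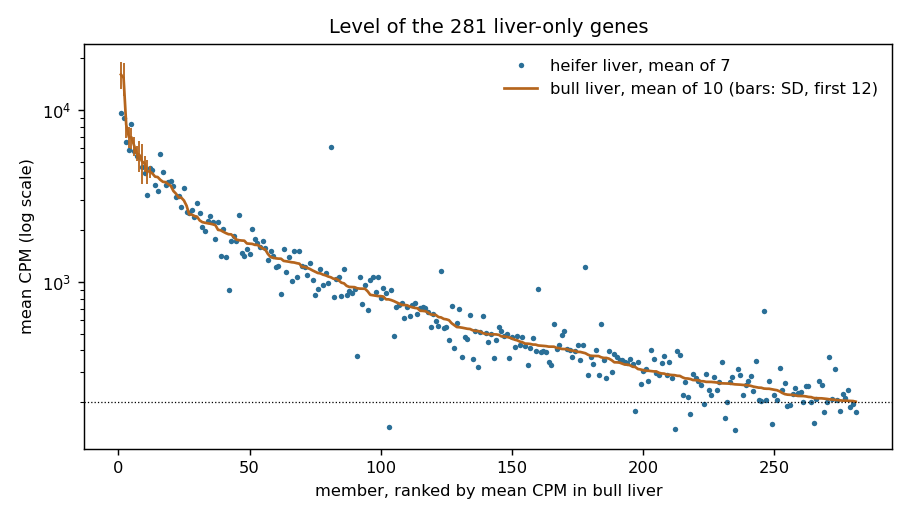
The mean CPM of each of the 281 members on a log scale, ranked by bull liver (line; bars are the SD of the first 12) with the mean of the 7 heifer livers as points; the dotted line is the 200 CPM of the rule. Most heifer points lie close to the bull line, and the point highest above it, at 6082 CPM, is ENSBTAG00000018365.

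The members' means in bull liver ran from 201.3 to 16047 CPM, with a median of 497 CPM and quartiles of 288 and 1221 CPM. Together they made up 29.8 to 33.4% of all reads counted in each bull liver and 28.3 to 31.9% in each of the 7 heifer livers. Their share was 31.8% ± 1.18 (SD, n = 5) in high RFI bulls and 31.5% ± 1.29 (SD, n = 5) in low RFI bulls. In heifers it was 30.2% ± 1.45 (SD, n = 4) in the high and 30.6% ± 1.15 (SD, n = 3) in the low RFI group, so that the groups overlapped in both sexes. The reads were concentrated in few genes: the 12 most abundant held 28.3% and the first 50 held 59.5% of the members' summed bull mean, while 84 members passed 1000 CPM. CPM is not divided by gene length, so a comparison of 2 genes by CPM compares reads and not molecules.

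A pair of genes led the list in both sexes. ENSBTAG00000001638 had 12557, 18567, 16626, 20914 and 11816 CPM in high RFI bulls 2701, 2703, 2641, 64 and 68, and 15987, 13174, 17863, 16638 and 16328 CPM in low RFI bulls 2659, 2669, 2712, 2713 and 2723. In high RFI heifers 2670, 2704, 2705 and L60 it had 9569, 8756, 13875 and 8125 CPM, and in low RFI heifers L59, 2632 and 2660 it had 8909.8, 10926 and 7189 CPM. The RFI groups overlapped within each sex, and of the heifers only 2705 reached the range of the bulls. ENSBTAG00000006745 followed with 15324 ± 3355 CPM (SD, n = 10) in bulls and 8985 ± 2017 CPM (SD, n = 7) in heifers. The means of these 2 genes lay within 1 SD of each other in bulls. Both were measured in the same bulls, so an SD between animals does not measure their difference. Their order varied between bulls. In 2669 the first was higher (13174 against 10595 CPM), and in 2659 the second (15987 against 18155 CPM). The difference within animals was not tested, here or for the ranks below.

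The third gene in bulls, ENSBTAG00000003564, was well below them at 8193 ± 1296 CPM, and had 6503 ± 1444 CPM in heifers. In heifers the third was ENSBTAG00000015676, at 8270 ± 885 CPM. It lay under ENSBTAG00000006745 (8985 ± 2017 CPM) by less than either SD, so by this measure the leading pair was set apart in bulls only. ENSBTAG00000016151 (6962 ± 944 CPM), ENSBTAG00000015676 (6922 ± 959 CPM), ENSBTAG00000013718 (6203 ± 784 CPM), ENSBTAG00000046158 (5576 ± 563 CPM) and ENSBTAG00000010991 (5479 ± 1118 CPM) came next in bulls. Each of these 5 differed from its neighbour by less than the larger of their SDs. ENSBTAG00000000522 (5024 ± 1291 CPM), ENSBTAG00000001915 (4877 ± 536 CPM), ENSBTAG00000046540 (4392 ± 708 CPM) and ENSBTAG00000000442 (4380 ± 349 CPM) closed the first 12 (SD over 10 bulls throughout). Of these 12, 10 were also among the 12 highest members in heifers. Over the 281 members the log2 means of bulls and heifers had r = 0.96 and rho = 0.95 across genes, which share the libraries of each sex and are not independent.

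At the lower end, the members just inside the rule were ENSBTAG00000003359, ENSBTAG00000026236 and ENSBTAG00000005810, at means of 203.3, 203.0 and 201.3 CPM. Those just outside were ENSBTAG00000008091, ENSBTAG00000020375 and ENSBTAG00000009284, at 199.1, 198.4 and 197.0 CPM. Their SDs in bulls were 16 to 101 CPM, well above the gap between the sets. By the heifer mean, 18 of the 281 members would have fallen under 200 CPM.

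Most members varied little between animals. The SD of the log2 values over the 10 bulls had a median of 0.25 and quartiles of 0.21 and 0.35, and over the 7 heifers it had a median of 0.28. For the 308 other identifiers of at least 200 CPM in bull liver, which were listed for heifer muscle as well, these medians were 0.21 and 0.25. An SD over 0.5 was found for 24 members (8.54%) in bulls and 32 (11.4%) in heifers, against 16 (5.19%) and 14 (4.55%) of the 308 other identifiers. Without bull 68 the count in bulls was 18 members, and the same count was not made for the other identifiers. These differences between the lists were not tested.

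**Figure D2:**
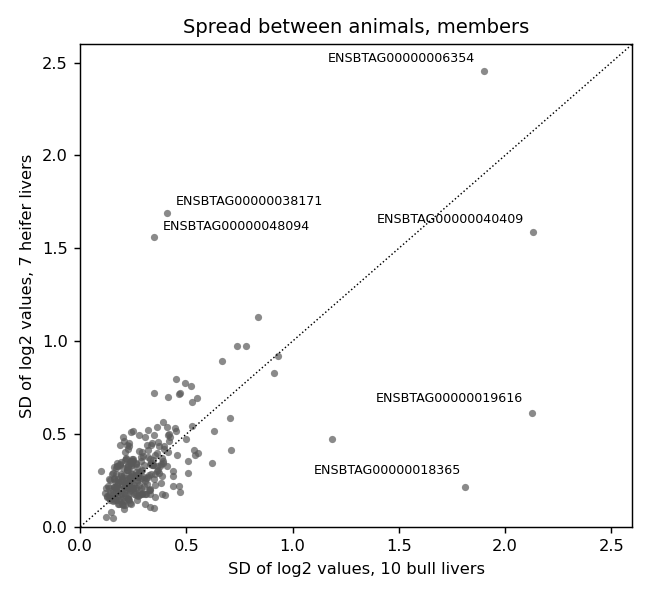
The SD of log2 values over the 10 bull livers (horizontal axis) against that over the 7 heifer livers (vertical axis), one point per member; the dotted line marks equal SDs. Most points lie under 0.5 on both axes, ENSBTAG00000006354 and ENSBTAG00000040409 are wide in both sexes, and ENSBTAG00000018365 is wide in bulls only (SD 1.81 against 0.21).

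Among the steadiest members, ENSBTAG00000000442 ran from 3975 to 5096 CPM over the 10 bulls (SD of 0.10 on the log2 scale), although its SD in heifers was 0.30. ENSBTAG00000014847 ran from 191 to 236 CPM in bulls and from 208 to 270.0 CPM in heifers, with SDs of 0.12 and 0.05. ENSBTAG00000006991, ENSBTAG00000019612 and ENSBTAG00000009501 had SDs of 0.12 to 0.13 in bulls. The spread of a member in bulls and in heifers was related across genes (r = 0.63, rho = 0.56 over 281 members), and 10 of the 20 most variable members in bulls were among the 20 most variable in heifers. Level and spread were hardly related in bulls (rho = -0.10 across genes).

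The widest member in bulls was ENSBTAG00000040409, with an SD of 2.13 on the log2 scale. It had 71.2, 619, 2729, 1904 and 1508 CPM in high RFI bulls 2701, 2703, 2641, 64 and 68, and 2808, 974, 116, 107 and 2806 CPM in low RFI bulls 2659, 2669, 2712, 2713 and 2723. Thus 3 bulls, of both RFI groups, were at 71.2 to 116 CPM and the other 7 at 619 CPM or more. Heifers were also spread widely, with 1097, 90.0, 1325 and 646 CPM in high RFI heifers 2670, 2704, 2705 and L60 and 1218, 1421 and 187 CPM in low RFI heifers L59, 2632 and 2660. The low minus high RFI difference was -0.32 ± 1.13 (SE) in bulls and 0.42 ± 0.97 (SE) in heifers on the log2 scale (limma, adjusted p of 0.960 and 0.9996).

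The second widest was ENSBTAG00000019616 (SD 2.13), which had 332, 279.6, 47.5, 708 and 335 CPM in the high RFI bulls and 221, 20.5, 4.94, 278 and 174 CPM in the low RFI bulls, in the same order of animals. Bull 2712, at 4.94 CPM, and bull 2669, at 20.5 CPM, lay far under the 200 CPM mean of the rule. None of the 7 heifers was low, with 909.6, 517, 304 and 586 CPM in the high and 832, 525 and 1038 CPM in the low RFI group. The bull groups overlapped, and low RFI bulls differed from high RFI bulls by -1.87 ± 1.00 (SE, log2, limma, adjusted p = 0.701).

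Both sexes were spread widely for ENSBTAG00000006354, the third widest in bulls (SD 1.90) and the widest in heifers (SD 2.45). High RFI bulls had 228, 2467, 115, 9339.9 and 589 CPM, and low RFI bulls had 2711, 1115, 1271, 860.1 and 234 CPM. High RFI heifers had 148, 595, 1688 and 17 CPM, and low RFI heifers had 542, 895 and 2395 CPM. Bull 64 and heifer L60 marked the extremes, and RFI groups overlapped in both sexes (limma, adjusted p of 0.965 in bulls and 0.9996 in heifers). The left-out heifer 2728, in which the members' median level was 43.5% of the heifer mean, had 12328 CPM, above all 17 other livers.

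**Figure D3:**
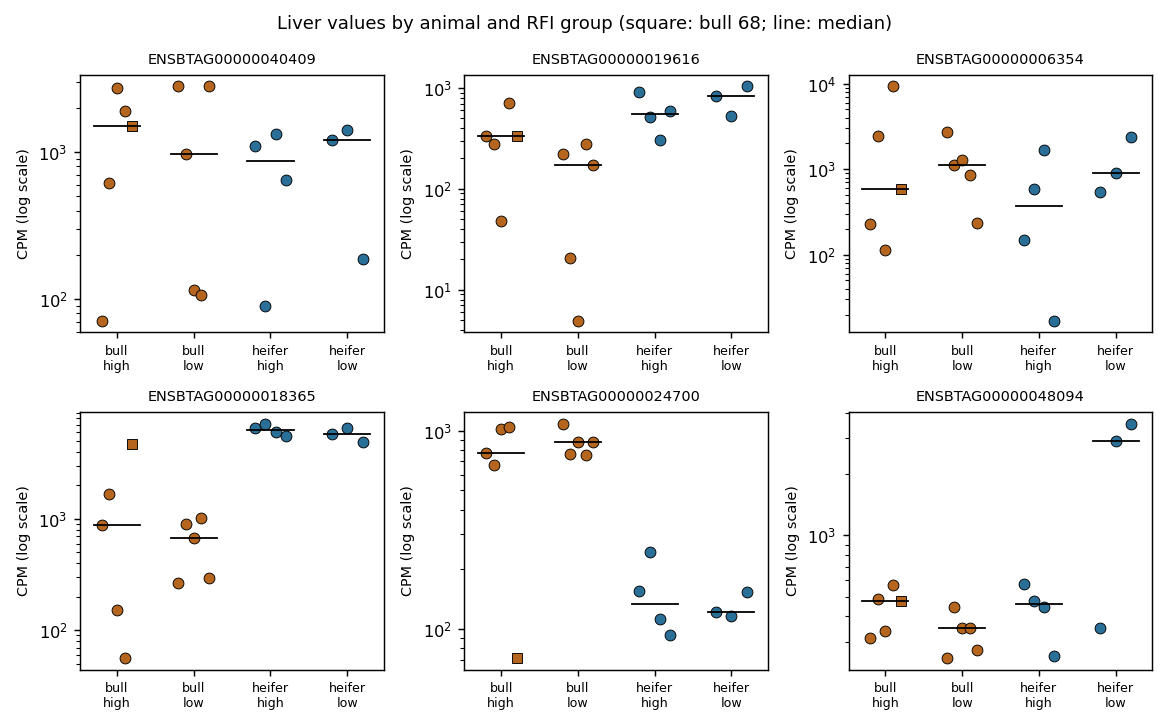
CPM on a log scale of 6 members in each bull (brown) and heifer (blue) liver by RFI group; lines are group medians and the square is bull 68. The RFI groups overlap in all 6 plots, bull 68 lies just under the heifers for ENSBTAG00000018365 (4695 CPM) and below them for ENSBTAG00000024700 (71.4 CPM), and 2 of the 3 low RFI heifers are high for ENSBTAG00000048094.

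Some members rose and fell together across animals. Of 39340 pairs of members, 69 had r of at least 0.9 over the 10 bulls and 446 over the 7 heifers, where 1.13% of pairs passed, and 17 pairs passed in both. These 17 were 24.6% of the bull pairs and 3.81% of the heifer pairs, and they joined 23 members into 8 groups. A member joined a group by at least 1 such pair, so not every pair within a group needed to pass. All pairs share their libraries and scaling, and with 7 heifers high r values are common, so these are descriptions. One such pair was ENSBTAG00000010991 and ENSBTAG00000015676 (r = 0.98 in bulls and 0.93 in heifers), both among the 12 most abundant members.

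ENSBTAG00000001992, ENSBTAG00000005498 and ENSBTAG00000007840 formed a group of 3 with r of 0.94 to 0.98 in bulls and 0.97 to 0.99 in heifers. Bull 2723 had the highest and bull 68 the lowest value of all bulls for each of them (349 and 105 CPM, 403 and 90.7 CPM, and 675 and 151 CPM). In heifers L59 was highest and 2632 lowest for each (245 and 52.8 CPM, 302 and 42.4 CPM, and 552 and 63.4 CPM). Without bull 68 their r values in bulls were 0.91 to 0.97. The largest group held 6 members, ENSBTAG00000003829, ENSBTAG00000003950, ENSBTAG00000007148, ENSBTAG00000010520, ENSBTAG00000016385 and ENSBTAG00000020859. Not all pairs within it passed in both sexes. For every gene of this group bull 2712 had the lowest value (259 CPM for ENSBTAG00000003950, against 402 to 639 CPM in the other bulls).

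The study asked how RNA in liver and muscle relates to RFI in both sexes, and the members were compared here in liver. In bulls, no member passed an adjusted p of 0.1 (limma on log2 values, 0 of 281; background 0% of 7363 identifiers tested), and 19 of 281 (6.76%) had an unadjusted p below 0.05, against a background of 7.54%. The members' median low minus high difference was 0.04 on the log2 scale, against 0.0015 over all identifiers, and with CPM as deposited the values were -0.01 and -0.05. Without bull 68 no member passed either, and 7 (2.49%) were below 0.05 unadjusted, against a background of 5.70%. The share of members was thus at or under that of all identifiers in both fits. The paper, with edgeR on counts at an adjusted p of 0.1, did report genes that differed in bull liver. None of the genes it lists there is a member, so its list and the count of members do not concern the same genes. It reported none in heifer liver. The edgeR test was not run here.

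Among the members with the smallest p in bulls, ENSBTAG00000007840 and ENSBTAG00000038171 were higher and ENSBTAG00000026501 and ENSBTAG00000026502 lower in low RFI bulls, none of them past the threshold. ENSBTAG00000026501 had 687, 673, 515, 569 and 753 CPM in the high and 516, 374, 319.7, 451 and 468 CPM in the low RFI bulls. A single low RFI bull (2659, at 516 CPM) reached the range of the high group, and the difference was -0.54 ± 0.15 (SE, log2, limma, adjusted p = 0.644). Without bull 68, the highest of the bulls, it was -0.50 (limma, adjusted p = 0.852). ENSBTAG00000026502 moved with it between animals (r = 0.95 in bulls and 0.90 in heifers), so the pair is not 2 separate pieces of evidence. In heifers, ENSBTAG00000026501 had 691, 689, 569 and 724 CPM in the high and 763, 682 and 392 CPM in the low RFI group, which overlapped.

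ENSBTAG00000038171 had 267, 282, 286, 255 and 445 CPM in the high and 339.9, 513, 338, 528 and 453 CPM in the low RFI bulls. The only value of the high group within the range of the low group was that of bull 68. The difference was 0.55 ± 0.17 (SE, log2, limma, adjusted p = 0.644) with bull 68 and 0.68 (adjusted p = 0.852) without it. In heifers the gene had 368, 592, 317 and 16.5 CPM in the high and 218, 211 and 293 CPM in the low RFI group, with L60 far below the other animals. Among bulls with 4-digit tags (3 high and 5 low RFI) the difference in bulls was 0.63, and that of ENSBTAG00000026501 was -0.55. ENSBTAG00000007840 differed by 0.93 ± 0.31 (SE, limma, adjusted p = 0.644), by 0.73 without bull 68 and by 0.65 among the 4-digit tags. The 2 short tags in bull liver, 64 and 68, were both of high RFI, so no value could be had among them.

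In heifers, no member passed an adjusted p of 0.1 (limma, 0 of 281; background 0% of 7231 identifiers tested), and 7 of 281 (2.49%) were below 0.05 unadjusted, against a background of 2.50%. ENSBTAG00000007846 had the smallest p. It had 1247, 1401, 1474 and 1209 CPM in high RFI heifers 2670, 2704, 2705 and L60, and 605, 482 and 1033 CPM in low RFI heifers L59, 2632 and 2660. The groups did not overlap, with a difference of -0.91 ± 0.24 (SE, log2, limma, adjusted p = 0.9996). It was -0.88 among the 4-digit tags (3 high and 2 low RFI). Among the short tags it was -0.90, which compares 1 high with 1 low RFI heifer. The bulls, at 384 to 1511 CPM in the high and 443 to 1045 CPM in the low RFI group, overlapped.

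ENSBTAG00000048094 had 575, 478, 444 and 256 CPM in the high RFI heifers and 349.5, 2912 and 3536 CPM in the low RFI heifers L59, 2632 and 2660. Heifers 2632 and 2660 thus stood above all other livers used, since the 10 bulls ran from 249 to 569.7 CPM, while L59 lay within the range of the high group. The difference was 1.94 ± 0.73 (SE, log2, limma, adjusted p = 0.9996). Without L59 it was 3.04 and passed the threshold (adjusted p = 0.0758), which leaves 2 low RFI heifers, both with 4-digit tags. The left-out high RFI heifer 2728 had 4381 CPM, the highest of all livers, and with all 10 heifers the difference was -0.86. Among the heifers used, the difference was 2.77 for the 4-digit tags (3 high and 2 low RFI) and 0.55 for the short tags (1 high and 1 low RFI). The other members near the top of the list were ENSBTAG00000001265, at a difference of 0.59 ± 0.18, and ENSBTAG00000003898, at -0.47 ± 0.16 (SE, log2).

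**Figure D4:**
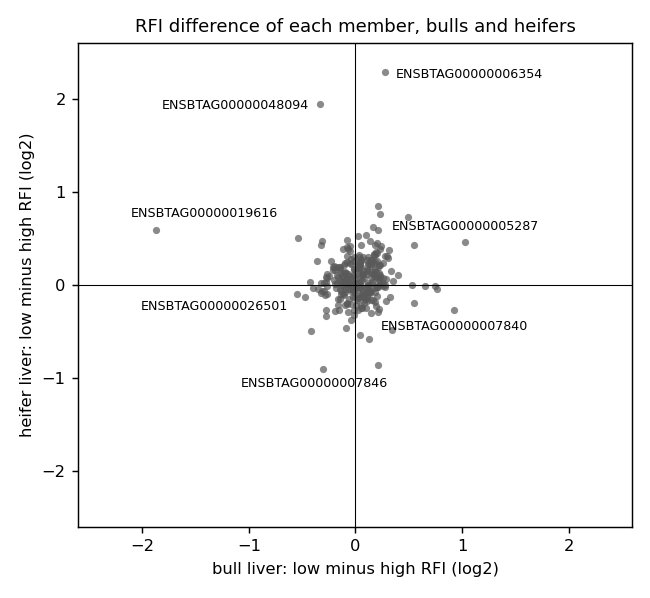
The low minus high RFI difference (log2) of each of the 281 members in bull liver (horizontal axis) and heifer liver (vertical axis). Most points lie near 0 on both axes. The points far from 0 (ENSBTAG00000019616 at -1.87 in bulls, ENSBTAG00000006354 at 2.28 and ENSBTAG00000048094 at 1.94 in heifers) belong to members of wide spread in that sex. The SD takes in both RFI groups, so an RFI difference itself adds to it.

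Whether the RFI difference itself differed between the sexes was tested as an interaction over the 17 livers. No member passed (limma, 0 of 281; background 0% of 7045 identifiers), and 2 (0.712%) were below 0.05 unadjusted, against a background of 3.63%. These 2 were ENSBTAG00000048094, whose difference was larger in heifers by 2.28 ± 0.71 (SE, log2, adjusted p = 0.959), and ENSBTAG00000008936, at -0.58 ± 0.26 (SE, adjusted p = 0.959). Without L59 the value of ENSBTAG00000048094 was 3.37 (limma, adjusted p = 0.000532). That fit drops the only low RFI heifer within the range of the high group and leaves 2 low RFI heifers. With the left-out heifer livers included, the value of ENSBTAG00000048094 reversed to -0.50. The result for this gene thus depended on which heifers were used.

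Between bulls and heifers, 25 of 281 members passed an adjusted p of 0.1 (limma with RFI group as a covariate), 14 higher and 11 lower in heifers. The background was 3.93% of 7045 identifiers, 2.04% higher and 1.89% lower. Since the bull mean is part of the rule that chose the members, nothing is read from this count, and sex cannot be told apart from anything else that differed between the 2 sets of libraries. Without bull 68, 35 members passed against a background of 5.46%, and 23 members passed with and without it. That library was set apart because it lay nearer to the heifers on identifiers that separated the other bulls from them. Leaving it out therefore favours larger differences between the sexes. The values without it, here and below, are a description and no independent check.

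ENSBTAG00000018365 had the largest difference. It had 886, 1679, 151, 56.5 and 4695 CPM in high RFI bulls 2701, 2703, 2641, 64 and 68, and 264, 906, 673, 1029.8 and 295 CPM in low RFI bulls 2659, 2669, 2712, 2713 and 2723. All heifers were higher, at 6544, 7169, 6082 and 5529 CPM in the high and 5768, 6554 and 4926 CPM in the low RFI group. The bulls ran over a wide range, the heifers over a narrow one, and the library labelled bull 68 was the closest of the bulls to the heifers. The gene was higher in heifers by 3.46 ± 0.63 (SE, log2, limma, adjusted p = 0.00875), an 11-fold difference, and by 3.84 without bull 68 (adjusted p = 0.000539). It ranked 81 among the members in bulls and 5 in heifers.

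ENSBTAG00000024700 went the other way. It had 768, 673, 1015, 1042 and 71.4 CPM in the high and 1084, 759, 879, 756 and 871 CPM in the low RFI bulls, in the same order. Heifers had 156, 246, 112 and 93.7 CPM in the high and 122, 116 and 154 CPM in the low RFI group. The library labelled bull 68 lay below all 7 heifers, and the other 9 bulls lay above them. The heifer minus bull difference was -2.23 on the log2 scale, and -2.64 without bull 68. The gene is one of the 18 members under 200 CPM by the heifer mean and entered through the bull mean, so this is a description with no test.

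ENSBTAG00000002255 was lower in heifers as well, at 370.3 ± 90.7 CPM (SD, n = 7) against 918 ± 307 CPM (SD, n = 10) in bulls, a difference of -1.21 ± 0.20 (SE, log2, limma, adjusted p = 0.00755), and of -1.33 without bull 68 (adjusted p = 0.000539). The library labelled bull 68, at 453 CPM, lay within the 233 to 463 CPM of the heifers, and the other bulls ran from 572 to 1484 CPM. ENSBTAG00000015654 was higher in heifers by 1.26 ± 0.28 (SE, log2, limma, adjusted p = 0.0206), and by 1.43 without bull 68 (adjusted p = 0.00202), with 913 ± 203 CPM (SD, n = 7) against 427 ± 253 CPM (SD, n = 10) in bulls. Here too the library labelled bull 68 was the highest bull, at 1029 CPM against 206 to 587 CPM in the others. The leading pair by level was also lower in heifers, ENSBTAG00000001638 by 0.72 ± 0.15 (adjusted p = 0.0156) and ENSBTAG00000006745 by 0.72 ± 0.16 (adjusted p = 0.0243; SE, log2, limma). Bull 68 was the lowest bull for both, at 11816 and 10187 CPM against at least 12557 and 10595 CPM in the others. The differences of this pair are given with bull 68 only.

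The bull muscle files played no part in the choice of members, and 103 of the 281 members were listed there, with a higher bull liver mean (median 1643 CPM) than the 178 not listed (median 372 CPM, at most 1285 CPM). In 6 of the 10 libraries labelled bull muscle (2641, 2666, M57, M65, 2723 and M67) these 103 members summed to 0.0245 to 0.242% of the reads. Their median level there was 0.0426 to 0.126% of the bull liver mean in 4 of the 6 libraries, 0.630% in 2723 and 0.970% in 2666. The other 4 libraries labelled bull muscle held the members at liver-like levels, with medians of 98.7% of the liver mean in M12, 91.7% in M6, 90.2% in 2712 and 45.1% in M74. For ENSBTAG00000006745, the highest member in bull muscle by the mean of the files, the first 6 libraries had 4.04 to 139.5 CPM, and M12, M6, 2712 and M74 had 14272, 15449, 19387 and 7672 CPM.

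**Figure D5:**
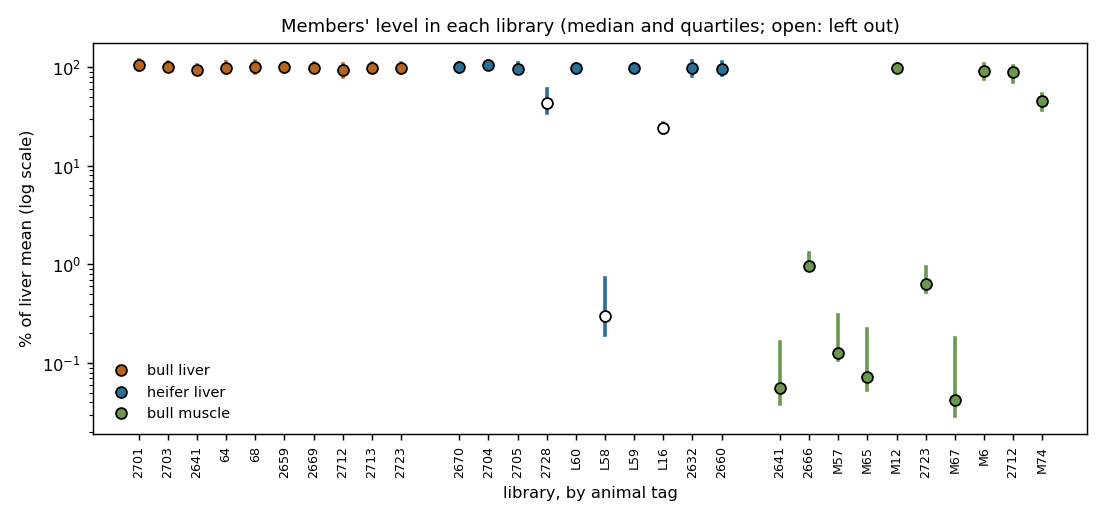
The members' level in each library as a percentage of their liver mean on a log scale, median (point) and quartiles (bar), over 281 members in bull and heifer liver and 103 in bull muscle; open points are the 3 left-out heifer livers. Bull livers and the 7 heifer livers lie near 100%, 6 muscle libraries lie under 1%, and M12, M6, 2712, M74, 2728 and L16 lie at 24.0 to 98.7%.

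The liver profiles in these 4 libraries were not alike. After the mean bull liver profile was taken off, the profile of the library labelled muscle 2712 had r = 0.92 with that of liver 2712 over the 103 members, and at most 0.49 with any other bull liver. M6 and M74 had r = 0.998 with each other, with a median difference of 0.02 on the log2 scale once their overall levels were matched, while 2 bull livers had r of at most 0.81. For ENSBTAG00000018365, M6 and M74 had 4318 and 2134 CPM, against 632 CPM in M12 and 811 CPM in 2712. Among bull livers the one labelled 68 had the highest r with M6 and M74 (0.54 and 0.55), and heifer 2705 had r = 0.56 with both. By the median log2 difference other livers were nearer to M6 and M74. It was 0.31 and 0.32 for bull 68, 0.26 and 0.25 for bull 2723, and 0.22 and 0.22 for heifer 2660. The r values are across genes, which share each library, and the reason for the likeness was not tested.

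Of the 3 heifer livers the rule leaves out, 2728 held the members at a median of 43.5% of the mean of the 7 heifers, with quartiles of 33.9 and 59.5%, and L16 at 24.0%, with quartiles of 21.7 and 27.0%. In L58 the median was 0.297%. All 281 members were below the range of the 7 heifers in L58, 274 in L16 and 227 in 2728. In 2728, 10 members were instead above that range, among them ENSBTAG00000006354 and ENSBTAG00000048094.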

How the data were processed

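Liver and muscle RNA of 40 samples was analysed. According to the study's methods, the authors mapped single-end reads with STAR (2.5.1) onto the cattle assembly UMD3.1, used HTSeq (0.6.1p2) for counting over protein-coding genes, and used edgeR (3.5) for their tests. The deposited values are CPM per gene, and how they were converted, or why some genes are listed and others not, is not given in the sources used here. The deposited bull muscle values were treated as a signal and described only, since 1359 rows at the end of each file repeat the liver values of bull 2723 and were left out. One stray letter in a heifer liver value was ignored.

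Values were whole multiples of 1 step per library (to within 0.00046 of a read), which gave the depth. After trimmed-mean-of-M-values scaling of the CPM (trims of 30 and 5%), log2(CPM + 1) was fitted with limma 3.58.1 (R 4.3.3) with a trended variance over all listed identifiers, and p-values were adjusted by Benjamini-Hochberg (adjusted p < 0.1). Fold changes are on the log2(CPM + 1) scale. A filter that needed over 1 CPM in a minimum share of 0.5 of a comparison's livers removed no member. CPM printed are as deposited, and SDs of log2 values are of scaled values. Correlations used numpy 2.4.6 and scipy 1.17.1 under Python 3.11.15, and plots matplotlib 3.10.9. Only the limma fits were tested on simulated data, with no change or with changes larger than most RFI differences given here. Smaller changes and the other steps were not tested in this way. Samples are animals, and nothing in the labels describes repeat libraries.

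The members were chosen, and the lists and tests set, with earlier results of these data known. Named singly are the 12 members highest in bull liver, those of largest and smallest SD, those of smallest p in each comparison, those nearest to 200 CPM and the highest in bull muscle, with at most 2 up and 2 down per comparison. Groups of members linked by pairs with r of at least 0.9 in both sexes were added after the values were seen. Lists of named genes and cell type markers, hepatocyte markers included, could not be applied, as no member could be matched to a symbol and the reference table gives no Ensembl identifiers, so the labelled tissue was not checked by markers. Genes that share reads with near-identical copies could not be identified either. Alternatives were other scalings, filters, pseudocounts, thresholds, samples and member rules.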

Additional observations from a re-analysis of the deposited data

Results flagged for a closer look

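Some single values lay far from the rest of their group by Dixon's gap criterion, applied on the log2 scale to 54 groups of 4 or 5 animals, of which chance alone would pick about 1 in 20. ENSBTAG00000024700 was 71.4 CPM in high RFI bull 68, against 673 to 1042 CPM in the other high RFI bulls. ENSBTAG00000038171 was 445 CPM in the same bull, against 255 to 286 CPM. ENSBTAG00000006745 was 13436 CPM in high RFI heifer 2705, against 7785 to 8290.1 CPM in the other high RFI heifers. ENSBTAG00000015654 was 501 CPM in high RFI heifer 2670, against 899 to 922 CPM.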

How the results depend on the processing

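No paired analysis was possible because the groups compared hold different animals and the labels give no replicate numbers. The count of members past the threshold was 0 for RFI in bulls under every alternative run, and for RFI in heifers and the interaction under every alternative except that leaving out L59 gave 1 in each (range 0 to 1 over the animals left out). Between bulls and heifers it was 20 to 35 of the members when each animal was left out (35 without bull 68), 1 with all 10 heifers, 45 with members of at least 100 CPM and 13 with members of at least 400 CPM, whose lists differ in size. The other alternatives gave 19 to 27, and 33 where bull 68 was left out of both choice and test, which was added after seeing the data. With all 10 heifers the RFI difference in heifers reversed for ENSBTAG00000001265 (-1.10) and ENSBTAG00000048094 (-0.86), and the interaction reversed for ENSBTAG00000048094 (-0.50) and ENSBTAG00000015654 (-0.97); the cause was not tested. The planned count tests, edgeR and DESeq2, were not run, and recovered read numbers served only for depth, scaling weights and a filter.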
